A study of Mus musculus with 2 samples.

Results

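The genes described here are 40 molecular chaperones, co-chaperones and heat shock transcription factors, taken by symbol from a list of the family, with no threshold on a measured value. All 40 were found among the 55536 genes of the tables. Their RNA was measured by total RNA sequencing in left cerebral cortex from B6CASTF1/J mice, all female and 18 to 20 months old. This strain is the first-generation hybrid of a C57BL/6J and a CAST/EiJ parent, so each animal carries 1 genome of each. The series holds 1 group with 2 libraries, replicate 1 and replicate 2, each made from 300 ng of RNA, with no treatment, no second age and no other tissue. The labels name 2 biosamples but give both the same donor entry, so the spread between the libraries may be technical and is given as a description without a test. How CAST/EiJ sequence affects read assignment on the C57BL/6J reference was not analysed here.

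Chaperones bind unfolded or partly folded proteins and keep them from aggregating until they fold, reach an organelle or are degraded. Hsp70 proteins do this in cycles of ATP binding and hydrolysis: J proteins (the Dnaj genes) deliver substrates and start hydrolysis, and exchange factors such as Bag proteins and Hsp110 release the nucleotide. Hsp90 acts later on near-native clients such as kinases and steroid receptors, the ring-shaped chaperonins enclose whole chains, and small heat shock proteins hold unfolded chains without ATP. Heat shock factors bind DNA repeats called heat shock elements and raise transcription of the inducible members. In neurons, Hsc70 (encoded by Hspa8) with auxilin strips clathrin from synaptic vesicles, and cysteine string protein works with Hsc70 at the synapse.

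The tables held 32504959 expected counts in replicate 1 and 24899781 in replicate 2, of which the 40 genes took 0.696% and 0.648%. Of the markers checked, 5 of 5 for neurons, 4 of 4 for astrocytes, 4 of 4 for oligodendrocytes and 4 of 4 for microglia reached 1 TPM in both libraries. The neuron marker Snap25 stood at 1506 and 1393 TPM in replicates 1 and 2. Of 3 choroid plexus markers, 2 reached 1 TPM in both libraries, and the 3 summed to 8.70 and 4.70 TPM. Folr1, the lowest of them, had 0.080 and 0.14 TPM. Beyond the chaperones, all 10 genes of a list of glucocorticoid-responsive genes were higher in replicate 2 (median log2 ratio of replicate 2 to replicate 1, 0.97), and all 3 blood markers were lower (median -0.60). Of 12 immediate early genes, which neuronal activity induces, 7 were higher and 5 lower (range -0.81 to 1.32), beside 49.97% lower among all genes with a mean of 10 counts. The RNA comes from whole tissue, so fewer cells of a type and less RNA per cell cannot be told apart.

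All 40 genes reached 1 TPM (a level scaled to the library and corrected for transcript length) in both libraries, where 58.3% of the 22015 nuclear protein-coding genes did. Their median level was 74.0 and 68.9 TPM in the libraries, or 71.4 ± 3.60 TPM (SD, n = 2, as throughout). The 12844 protein-coding genes detected at 1 TPM had a median of 15.8 ± 0.375 TPM, and 33 of the 40 lay above it. Together the 40 genes made up 0.984% ± 0.0325 of the nuclear protein-coding TPM. Hspa8, Hsp90ab1 and Hsp90aa1 alone held 46.2% ± 0.533 of the members' TPM, so 2 cytosolic Hsp90 genes and 1 Hsp70 gene made up a large part of the total. At the other end, 5 genes averaged under 10 TPM: Bag3, Hspb8, Hspb1, Hspa1a and Hspa1b.

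**Figure D1:**
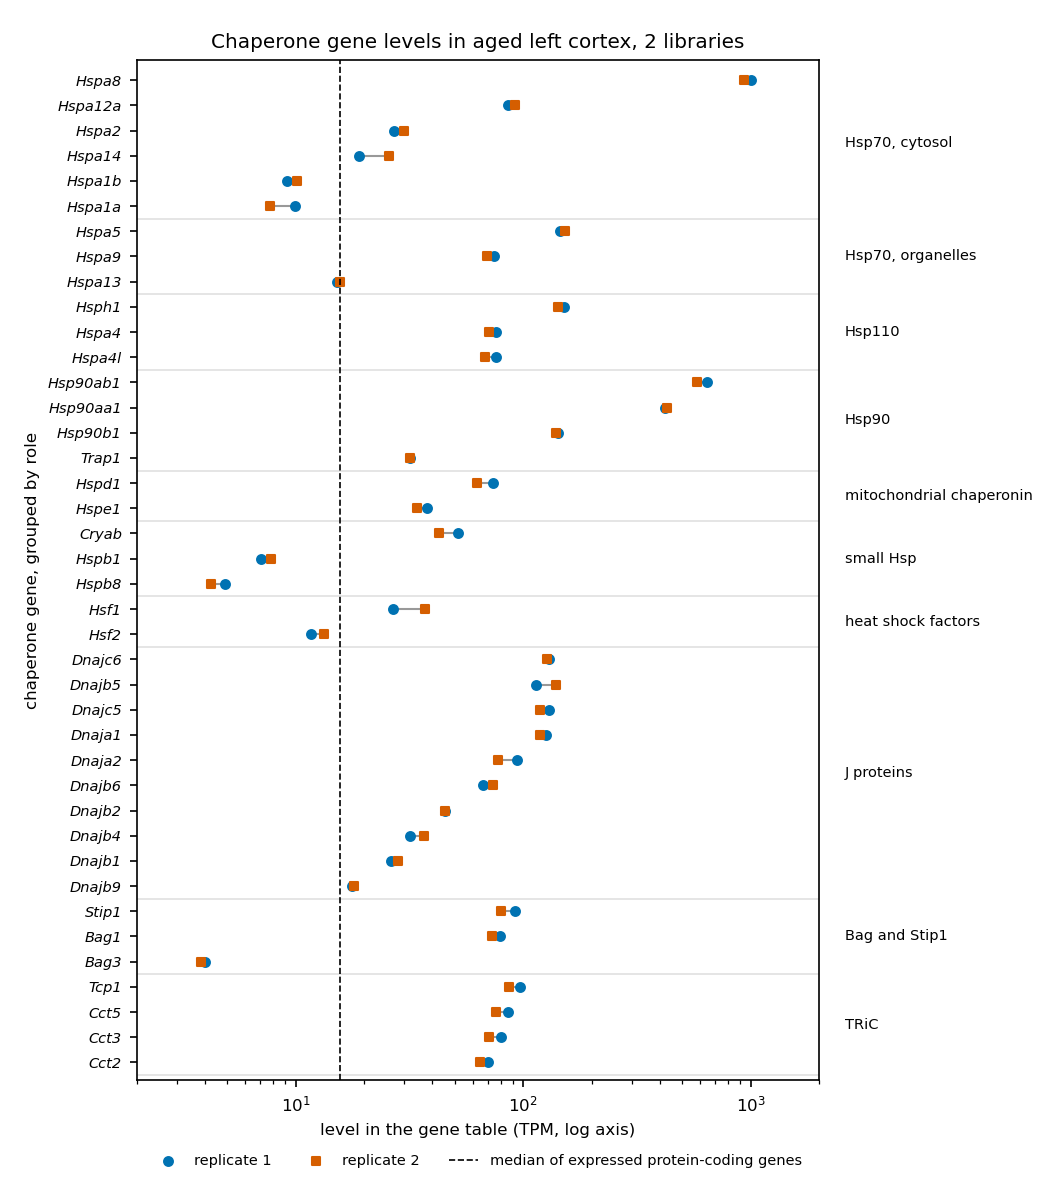
Level of each of the 40 genes in the gene tables (TPM, log axis), grouped by role, with a circle for replicate 1 and a square for replicate 2; the dashed line is the median of expressed protein-coding genes (15.8 TPM). Hspa8 and the cytosolic Hsp90 genes stand furthest right, and Hspa1a, Hspa1b, Hspb1, Hspb8 and Bag3 furthest left.

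Among the Hsp70 genes of the cytosol, the constitutive form stood far above the inducible ones. Hspa8 (chromosome 9, 40800984 to 40810087, plus strand, mm10) had 1004 and 934 TPM in replicates 1 and 2, and ranked 6th by mean TPM among nuclear protein-coding genes. The heat-inducible genes Hspa1a (chromosome 17, 34969190 to 34972156, minus strand) and Hspa1b (chromosome 17, 34956436 to 34959238, minus strand) encode nearly the same Hsp70 protein. Hspa1a had 9.98 and 7.76 TPM, and Hspa1b 9.18 and 10.19 TPM. In these gene tables Hspa1a was thus the higher of the pair in replicate 1 and the lower in replicate 2. The alignment-free tables, a second quantification of the same libraries, put Hspa1a lower in both, at 0.978 and 0.719 times Hspa1b. Hspa8 exceeded the pair's sum 52.2 ± 0.245-fold by the gene tables, and 52.0 ± 2.20-fold by the alignment-free tables.

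The other Hsp70 relatives of the cytosol lay between these extremes. Hspa12a, a distant relative known from brain, had 85.8 and 92.2 TPM. Hspa2, known best for its role in sperm development, had 27.2 and 30.1 TPM, and Hspa14, a ribosome-associated form, 19.0 and 25.7 TPM. All 3 had more TPM in replicate 2, in contrast to Hspa8.

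Near-identical copies limit how far the reads of several members can be assigned. The coding sequences of Hspa1a and Hspa1b, 1923 and 1926 bases long in the GENCODE M21 transcripts, were 99.4% identical, with 8 mismatches, a gap of 3 bases and a longest identical run of 638 bases. The stretch below holds the gap. It is shown because few other bases of the coding sequence can tell the genes apart, and capitals mark letters that differ or have no counterpart in the alignment.
Hspa1a: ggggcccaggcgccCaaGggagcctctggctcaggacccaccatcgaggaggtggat
Hspa1b: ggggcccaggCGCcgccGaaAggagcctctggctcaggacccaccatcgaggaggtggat
Of all 100-base windows of each transcript, 48.6% for Hspa1a and 49.9% for Hspa1b also occurred in another gene. The posterior SD that the gene tables give for the split of reads was at most 4.46% of a member's count, and it passed 1% for 4 members. Summed, Hspa1a and Hspa1b had 1205 counts in replicate 1 and 840.1 in replicate 2, 19.2 and 17.9 TPM. Their log2 ratios of replicate 2 to replicate 1 had opposite signs, -0.40 for Hspa1a and 0.11 for Hspa1b, and the sum gave -0.14 (95% interval -0.27 to -0.013, exact binomial, for counting error only).

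Hspa8 shares more of its sequence with a pseudogene. Of the 100-base windows of its leading transcript Hspa8-202, 73.2% occurred in another gene, most often in the processed pseudogene Gm15459 (chromosome 5, 5781615 to 5783555, minus strand), which lies on another chromosome. The gene tables gave Gm15459 11130 counts in replicate 1 and 7255 in replicate 2, with a level of 268 and 234 TPM. The alignment-free tables also gave it 375 and 323 TPM. These counts were 22.0% and 21.7% of those of the 2 genes together, so the share hardly moved between libraries. Summed with Gm15459, Hspa8 stood at 1220 ± 73.6 TPM in place of 969 ± 49.2 TPM. Whether the pseudogene is transcribed or its reads came from Hspa8 was not tested.

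Other members also shared sequence with other genes, and the part of the counts that the other gene took varied. In all, 14 of the 40 had fractional counts, and 12 of these 14 shared 100-base windows with another gene, as did 1 of the 26 with whole counts. Hsp90aa1 shared 53.2% of its windows, most with the transcribed pseudogene Gm12346, which took 1.73% and 1.99% of the counts of the pair. Hspb1 shared 56.3%, most with Hsp25-ps1, which took 11.5% and 5.71%. Dnaja1 shared 25.0%, and its pseudogene Gm15542 took 6.81% and 7.47%. Hspa14 overlaps the gene Gm45902 on the same strand, which took 21.6% and 25.4% of the counts of that pair.

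The Hsp110 genes encode exchange factors related to Hsp70. Hsph1 had 151 and 143 TPM. Hspa4 had 76.4 and 70.9 TPM and Hspa4l 75.8 and 68.4 TPM, so these paralogs were nearly equal in the gene tables, with a ratio of 1.02 ± 0.0206. The ratio was 1.15 ± 0.0130 in the alignment-free tables. All 3 stood well above the median of expressed genes.

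Of the Hsp70 genes for organelles, Hspa5, which encodes the endoplasmic reticulum chaperone BiP, was highest at 146 and 152 TPM. Hspa9, which encodes the mitochondrial form mortalin, had 74.3 and 69.4 TPM. Hspa13, whose product lies in microsomes, had 15.2 and 15.7 TPM. Hspa5 and Hspa13 differed between the libraries by less than their counting error, with log2 ratios of -0.017 (95% interval -0.067 to 0.032) and 0.037 (-0.085 to 0.16).

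The 4 Hsp90 genes spanned a wide range. Hsp90ab1, the constitutive cytosolic form, had 643 and 583 TPM, and Hsp90aa1, the more inducible cytosolic form, 419 and 429 TPM. Hsp90b1, which encodes Grp94 of the endoplasmic reticulum, had 143 and 140 TPM, close to Hspa5 in the gene tables. Trap1, the mitochondrial Hsp90, had 31.9 and 31.8 TPM. The order of the cytosolic pair depended on the quantification. Hsp90ab1 exceeded Hsp90aa1 1.45 ± 0.124-fold in the gene tables, whereas the ratio was 0.945 ± 0.0165 in the alignment-free tables, with Hsp90aa1 the higher in both libraries.

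The mitochondrial chaperonin consists of a barrel encoded by Hspd1 and a lid encoded by Hspe1. Hspd1 had 73.7 and 63.0 TPM and Hspe1 37.9 and 34.1 TPM, a ratio of 1.90 ± 0.0658 in the gene tables and 1.36 ± 0.0976 in the alignment-free tables. The genes lie head to head on chromosome 1, Hspd1 on the minus strand (55077835 to 55088243) and Hspe1 on the plus strand (55088132 to 55091307). Their annotated ends overlap by 112 bases.

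Of the 3 small heat shock proteins, only Cryab was above the median of expressed genes. Cryab, which encodes alpha-B crystallin and is known from lens, muscle and glia, had 51.9 and 42.6 TPM. Hspb1, which encodes Hsp25, had 7.03 and 7.79 TPM, and Hspb8 had 4.92 and 4.24 TPM. Cryab exceeded Hspb1 6.43 ± 1.35-fold. The counts behind Hspb1 (127.5 and 105.6) and Hspb8 (176 and 117) were among the lowest of the members, and their intervals of the log2 ratio (-0.27 to 0.50 and -0.56 to 0.14) include 0.

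Both heat shock factors were detected. Hsf1, the main activator of heat-inducible transcription, had 26.8 and 37.2 TPM. Hsf2, a relative active in development, had 11.6 and 13.4 TPM. By whole-gene TPM both were higher in replicate 2, and Hsf1 exceeded Hsf2 2.54 ± 0.343-fold. Protein-coding transcripts alone put them closer together, with 15.6 and 16.5 TPM for Hsf1 and 9.41 and 9.10 TPM for Hsf2.

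The 10 J proteins had a median of 78.1 ± 2.95 TPM. Dnajc6, which encodes auxilin, had 131 and 128 TPM, Dnajb5 114 and 140 TPM, and Dnajc5, which encodes cysteine string protein, 130 and 119 TPM. In the gene tables these genes stood near Dnaja1 (126 and 118 TPM), a general partner of cytosolic Hsp70. The alignment-free tables put Dnaja1 higher, at a mean of 257 TPM, beside 187 TPM for Dnajc6, 187 TPM for Dnajb5 and 209 TPM for Dnajc5. Dnaja2 had 93.8 and 78.0 TPM, Dnajb6, which limits aggregation of polyglutamine proteins, 66.5 and 74.0 TPM, and the co-chaperone Dnajb2 45.5 and 45.4 TPM. Dnajb4 had 32.0 and 36.7 TPM and the heat-inducible Dnajb1 26.2 and 28.2 TPM, so Dnajb5 exceeded its relative Dnajb1 4.67 ± 0.422-fold. Dnajb9, the endoplasmic reticulum J protein ERdj4, was lowest at 17.7 and 18.1 TPM.

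Of the co-chaperones, Stip1, which links Hsp70 to Hsp90, had 92.6 and 80.2 TPM. The exchange factor Bag1 had 78.8 and 72.7 TPM. Bag3, an inducible exchange factor that guides clients to autophagy, had 4.02 and 3.85 TPM and was the lowest of the 40. It rested on 223 and 160 counts.

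TRiC, also called CCT, is the cytosolic chaperonin that folds actin and tubulin, with 8 different subunits in each ring. In the gene tables the 4 subunits among the 40 genes stood close together. Tcp1 had 97.0 and 87.2 TPM, Cct5 85.8 and 76.4 TPM, Cct3 80.1 and 70.8 TPM, and Cct2 70.4 and 64.6 TPM. In the alignment-free tables Cct3 averaged 81.1 TPM, beside 149 TPM for Cct5, 150 TPM for Cct2 and 176 TPM for Tcp1. Protein-coding transcripts alone gave Cct3 43.75 and 36.34 TPM in the alignment-based tables, beside 68.85 and 63.26 TPM for Cct2. Of the other four, Cct7 had 99.8 and 89.6 TPM, Cct8 77.0 and 72.5 TPM, Cct6a 67.8 and 62.1 TPM, and Cct4 47.4 and 42.7 TPM. The 8 subunit means in the gene tables spanned 45.0 to 94.7 TPM, a narrow range beside the 3.94 to 969 TPM of the 40 genes. Cct6b, a paralog of Cct6a known from testis, had 0.11 and 0.21 TPM.

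A wider list of 97 further chaperone genes put these levels in context. Of these, 82 reached 1 TPM in both libraries. The highest were the calcium-binding endoplasmic reticulum chaperones Calr (203 and 181 TPM) and Canx (184 and 164 TPM), and the prefoldin subunit Pfdn5 (199 and 181 TPM). Next came the heat shock factor binding protein Hsbp1 (139 and 132 TPM), the quality-control factor Bag6 (132 and 138 TPM) and the J protein Dnajc7 (114 and 115 TPM). Other Hsp90 co-chaperones of 18 on the list were led by Stub1, a ubiquitin ligase, at 77.0 and 75.5 TPM. Small heat shock proteins outside the 40 were scarce, with 3 of 7 at 1 TPM.

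Between the libraries, none of the 40 (0 of 40) passed 1.5-fold in scaled counts (TMM scaling, edgeR). Of the 18246 genes with a mean of 10 counts, 14.3% did. The lowest mean among the 40 was 116.5 counts, so the 12570 genes with a mean of 100 counts are the nearer background, and 3.77% of those passed. The median absolute log2 ratio was 0.155 for the 40 genes and 0.129 for those 12570, so the members were not typically closer. A log2 ratio of 0.32 either way, a lower threshold, was passed by 3 of 40 genes, where 13.0% of those 12570 genes passed it: Hspa1a with a log2 ratio of -0.40, Cryab with -0.33 and Hsf1 with 0.33. With 1 library on each side these ratios compare libraries, and have no replicate check.

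**Figure D2:**
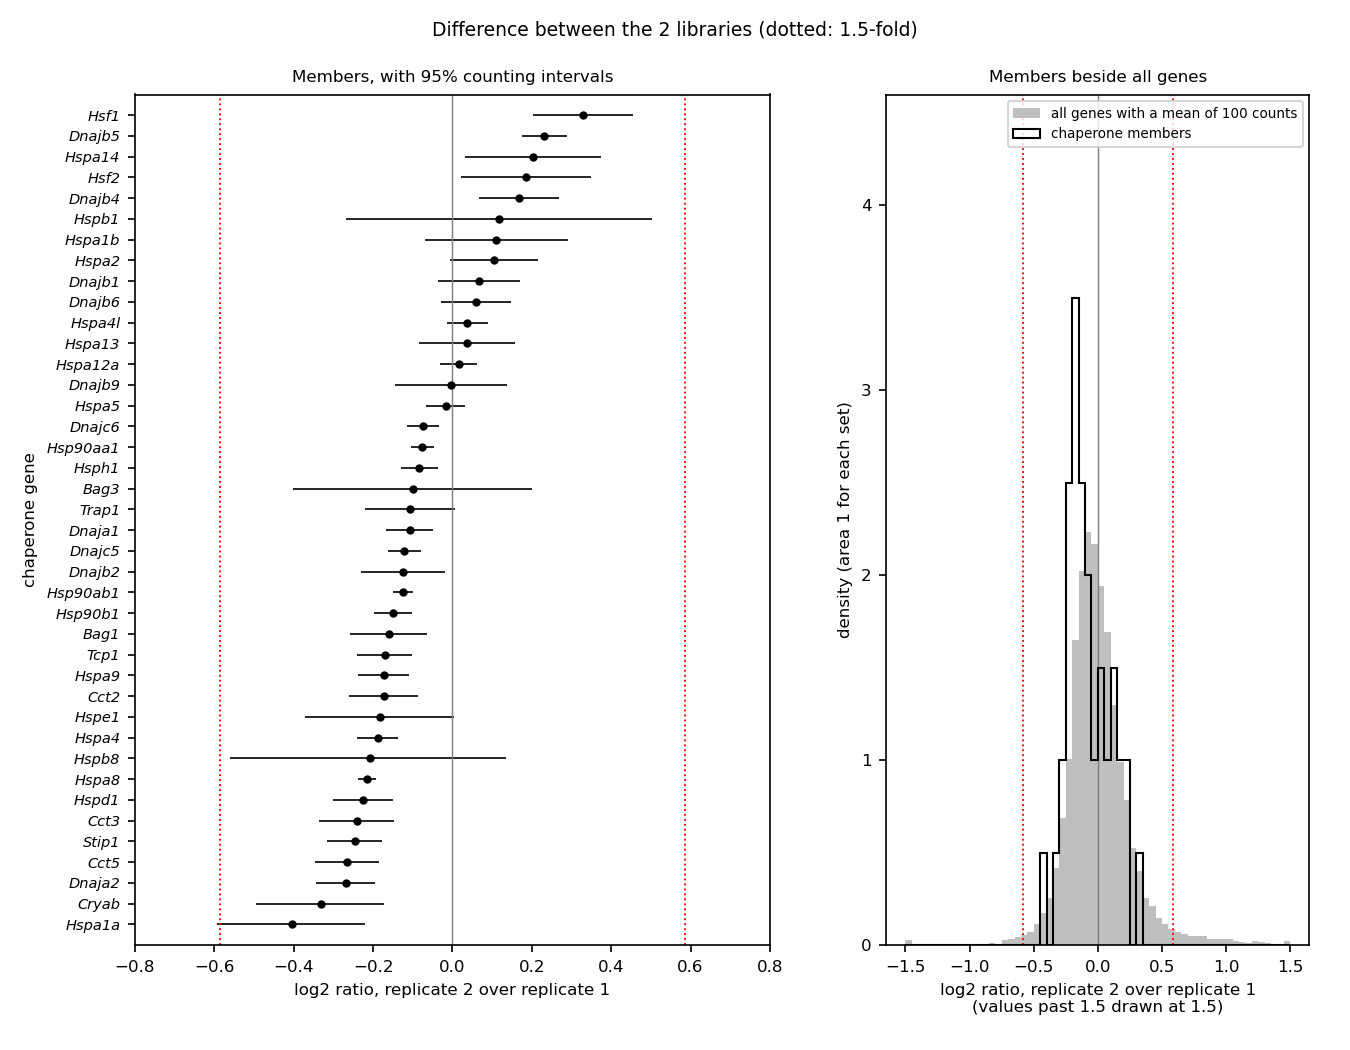
Left, log2 ratio of replicate 2 to replicate 1 for the 40 genes with 95% intervals for counting error only; right, their distribution beside that of the 12570 genes with a mean of 100 counts. Dotted lines mark 1.5-fold, and the ratios of the 40 genes run from -0.40 to 0.33, inside both lines.

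Small shifts ran in 1 direction for most members. Of the 40, 27 were lower in replicate 2, and their median log2 ratio was -0.11, beside -0.02 for all genes with a mean of 100 counts, of which 55.2% were lower. Hspa8 had a ratio of -0.21 (95% interval -0.24 to -0.19) and Hsp90ab1 of -0.13 (-0.15 to -0.10). These intervals cover counting error only, narrow as counts rise, and hold no spread between animals or preparations. The direction changed with the scaling: with counts scaled by the spike-in totals every gene shifted by 0.16, the members' median became 0.05 and 14 of 40 were lower, beside 20.95% of all those genes.

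All 8 TRiC subunits were lower in replicate 2, with log2 ratios of -0.26 to -0.17 and a median of -0.18. They also stood lower with spike-in scaling, by less (median -0.02), and in the alignment-free counts. Both heat shock factors were higher under each of these scalings, Hsf1 with 0.33 (95% interval 0.20 to 0.45) and Hsf2 with 0.19 (0.022 to 0.35). Of the 12 members that heat induces, 9 were lower and 3 higher with TMM scaling (median -0.10), and 5 were lower and 7 higher with spike-in scaling (median 0.057). Of the 4 that respond to endoplasmic reticulum stress, Hsp90b1 had -0.15 and the other three lay between -0.017 and 0.037.

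Cryab and the markers of several cell types were lower in replicate 2. The log2 ratio of Cryab was -0.33 (95% interval -0.49 to -0.17), and all 4 oligodendrocyte markers were lower in replicate 2, with a median of -0.33 and a range of -0.36 to -0.09. Their summed level was 533 and 454 TPM. Markers of some other cells were lower as well. The 4 microglia markers had a median log2 ratio of -0.29 (4 of 4 lower), the 3 endothelial markers -0.35 (3 of 3 lower) and the 3 mural cell markers -0.28 (2 of 3 lower). The 3 blood markers summed to 395 and 256 TPM, and the 3 endothelial markers to 45.8 and 36.8 TPM. The 5 neuron markers had a median log2 ratio of -0.07 (3 lower, 2 higher), and the 4 astrocyte markers -0.0047 (2 lower, 2 higher). Among all genes with a mean of 100 counts, 55.2% were lower. The part of cell composition in the Cryab ratio was not tested.

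The further chaperones also lay mostly lower in replicate 2 with TMM scaling. Of 84 with a mean of 10 counts, 60 were lower in replicate 2 (median log2 ratio -0.10), beside 49.97% of all 18246 such genes. A 1.5-fold difference was passed by 3 of the 84, beside 14.3% of those 18246 genes. Among the 12570 genes with a mean of 100 counts, 55.2% were lower and 3.77% passed 1.5-fold. The 3 of 84 are therefore not read as few. With spike-in scaling the direction turned, with 27 of 84 lower and a median of 0.060, beside 23.5% of the 18246 genes lower. Fkbp5, a co-chaperone of the glucocorticoid receptor and itself a glucocorticoid target, had 16.1 and 28.9 TPM and a ratio of 1.03. Hspb3 had 3.64 and 2.09 TPM, from 56 and 24 counts, and Hsf5 0.21 and 0.37 TPM, from 19 and 25 counts. The glucocorticoid-responsive list, which holds Fkbp5, had 7 of 10 genes past 1.5-fold, beside 14.3% of all genes with a mean of 10 counts. The Hsp90 genes that serve that receptor had ratios of -0.13 (Hsp90ab1) and -0.075 (Hsp90aa1).

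The libraries also differed in transcript classes. Retained-intron transcripts, which GENCODE annotates as holding intronic sequence, took 7.63% of the members' TPM in replicate 1 and 10.9% in replicate 2 in the alignment-based tables, and 6.44% and 7.20% in the alignment-free tables. Over all nuclear protein-coding genes the shares were also higher in replicate 2, at 7.92% and 10.2% in the alignment-based tables and 8.95% and 10.9% in the alignment-free ones. Of 25 members with such transcripts, 23 had a higher share in replicate 2 in the alignment-based tables, 21 in the alignment-free tables and 20 in both. The members thus followed the direction seen over all genes.

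**Figure D3:**
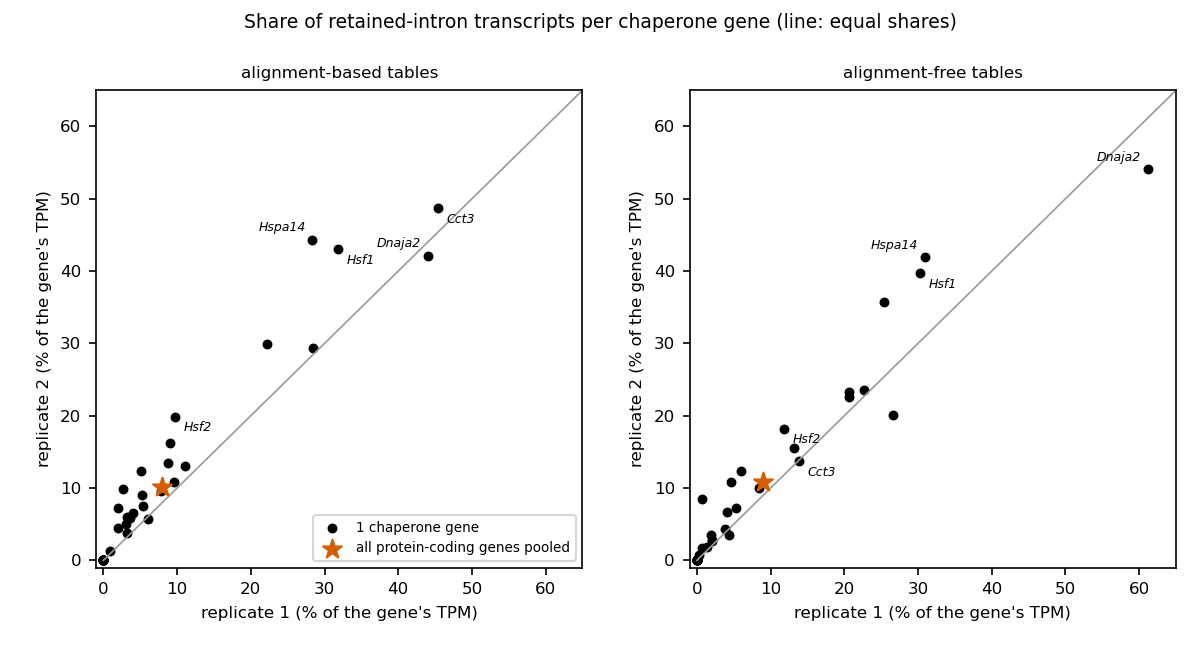
Share of each chaperone gene's TPM on retained-intron transcripts in replicate 1 (x axis, percent) and replicate 2 (y axis, percent) in the alignment-based (left) and alignment-free (right) tables, with the pooled protein-coding genes as a star. Most points lie above the line of equal shares, Hspa14 and Hsf1 well above it in both panels, and Dnaja2 lies below it in both.

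Hsf1 and Hspa14 had a large difference in both kinds of table. In Hsf1 the retained-intron share was 31.9% in replicate 1 and 43.1% in replicate 2 (30.3% and 39.7% alignment-free), and in Hspa14 28.3% and 44.3% (30.9% and 41.9%). Protein-coding transcripts alone gave Hsf1 15.6 and 16.5 TPM, against 26.8 and 37.2 TPM for the whole gene. For Hspa14 they gave 13.7 and 14.3 TPM, and for Hsf2 9.41 and 9.10 TPM. Counted by protein-coding transcripts, then, the 2 heat shock factors differed little between the libraries, with log2 TPM ratios of 0.086 for Hsf1 and -0.048 for Hsf2. Dnajb5 kept more of its difference, with 68.6 and 77.4 TPM from protein-coding transcripts. Dnaja2 went the other way, with retained-intron shares of 44.0% and 42.1% (61.1% and 54.1% alignment-free).

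The leading transcript, the one with the most TPM, was the same in all 4 transcript tables for 28 of the 40 genes, which have 237 annotated transcripts between them. Between the libraries it was the same in both kinds of table for 37 genes. It differed for Cryab in the alignment-based tables and for Hsf2 and Dnajb2 in the alignment-free ones. The other nine changed only between the alignment-based and the alignment-free tables. Hspa8 was the clearest case: Hspa8-202 (2019 bases) held 45.3% ± 0.60 of the gene's TPM and Hspa8-201 (2394 bases) 30.9% ± 3.77 in the alignment-based tables, against 0.192% ± 0.138 and 75.1% ± 0.479 in the alignment-free ones. Dnajb4 moved from Dnajb4-202 (67.6% ± 2.23) to another protein-coding transcript of 2459 bases (65.8% ± 8.19), and Bag1 from Bag1-201 (80.6% ± 7.76) to Bag1-202 (54.1% ± 3.43). In Dnaja2 the alignment-free tables put the retained-intron transcript Dnaja2-202 (507 bases) first.

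**Figure D4:**
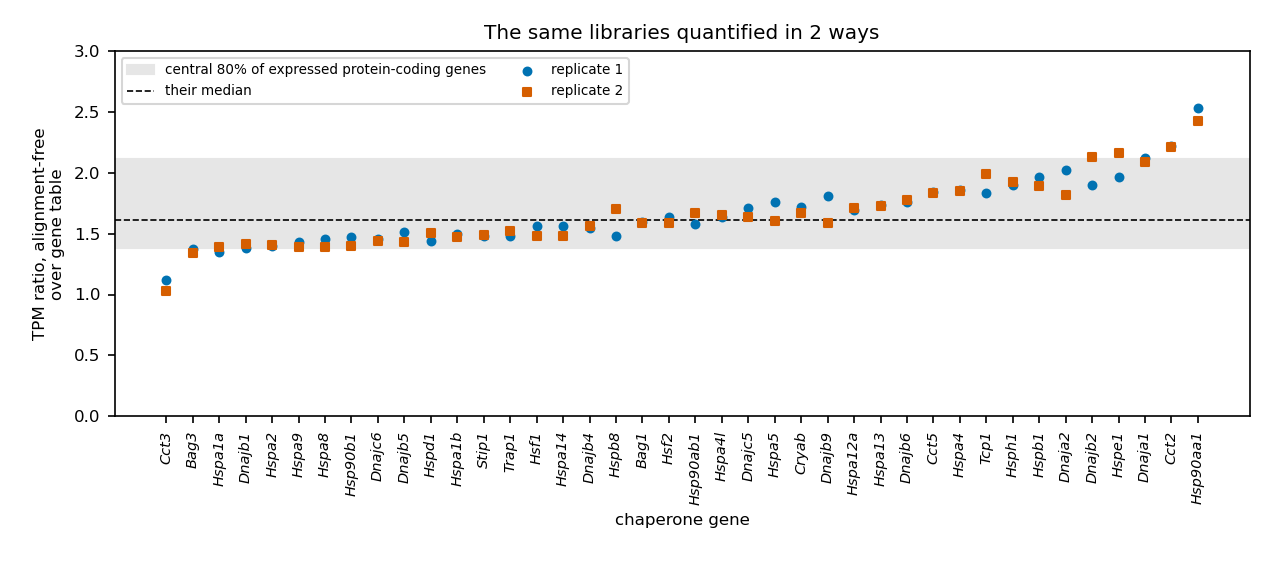
Ratio of the alignment-free TPM to the gene-table TPM for each gene (circles, replicate 1; squares, replicate 2), with the central range of expressed protein-coding genes shaded and their median, 1.62, dashed. Cct3 lies lowest (1.07 as the ratio of means) and Hsp90aa1 highest (2.48).

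Levels from the 2 quantifications differed by a factor that varied between genes. Across expressed protein-coding genes the alignment-free TPM was a median of 1.62 times the gene-table TPM, and the 40 chaperones had the same median. Hsp90aa1 was highest at 2.48 times. Its short transcript Hsp90aa1-207 (481 bases) took 49.1% ± 0.12 of its TPM in the alignment-free tables and 1.95% ± 0.579 in the alignment-based ones. Cct3 was lowest at 1.07 times. Its retained-intron transcript Cct3-203 (472 bases) held 43.3% ± 1.52 of the alignment-based TPM and 7.74% ± 2.89 of the alignment-free TPM.

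The promoters of these genes were searched for the binding motifs of the 2 stress pathways, in RefSeq windows (GRCm38.p6) from 250 bases before to 50 after each annotated start. The table had 46 windows for 32 members. Hspa8, Hspa9, Hspa13, Hsp90aa1, Hsp90ab1, Cryab, Hsf1 and Dnajc5 had no entry. A heat shock element was read as GAANNTTC or TTCNNGAA (a pair of inverted units) and, more strictly, as GAANNTTCNNGAA or TTCNNGAANNTTC (3 units, each holding a pair match). The endoplasmic reticulum stress element was read as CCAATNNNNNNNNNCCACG. All were searched on both strands. A match is a description of letters and says nothing about binding in cortex.

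The pair motif occurred in 15 of 46 windows (32.6%), beside 15.1% of the 32851 windows of all genes. By gene, 13 of 32 members had it, and 8 of the 10 heat-inducible members in the table. The share by gene over all genes was not computed, so these counts have no background. The 3-unit motif occurred in 6 of 46 windows (13.0%) beside 0.603% of all windows, in Dnajb6, Hspd1, Hspe1 and Hsph1. These windows are not independent. The same match of Dnajb6, and that of Hsph1, fell in more than 1 overlapping window, and Hspd1 and Hspe1 share 1 site. The stress element occurred in 2 of 46 windows (4.35%) beside 0.119% of all, in Hspa5 and Hsp90b1. Members with a pair match ranged from 3.94 TPM (Bag3) to 147 TPM (Hsph1), so the motif did not go with 1 level in this tissue.

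The windows below carry these matches in capitals, on the strand of the gene. In Hspa1a (chr17:34972232-34972281) and Hspa1b (chr17:34959314-34959363) the stretch, 104 to 97 bases before the start at its match, is the same in all 50 bases, and 247 of the 250 bases before the starts are identical. Hspb1 has 2 pair matches close together (chr5:135887781-135887830). Hspd1 and Hspe1 share 1 stretch between them, read from opposite strands (chr1:55088053-55088082), and Dnajb6 has a 3-unit match (chr5:29735844-29735872).
Hspa1a: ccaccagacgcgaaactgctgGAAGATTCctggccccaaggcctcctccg
Hspa1b: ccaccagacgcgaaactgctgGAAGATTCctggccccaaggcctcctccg
Hspb1: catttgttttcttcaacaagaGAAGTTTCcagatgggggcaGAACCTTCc
Hspd1: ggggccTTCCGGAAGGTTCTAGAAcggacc
Hspe1: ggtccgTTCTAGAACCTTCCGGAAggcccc
Dnajb6: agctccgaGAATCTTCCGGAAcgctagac
With the same letters here, Hspa1a and Hspa1b had log2 ratios of -0.40 and 0.11, and Hspd1 and Hspe1, which share 1 element, had -0.22 and -0.18. The stress elements of Hspa5 (chr2:34772020-34772048) and Hsp90b1 (chr10:86705617-86705677) are shown for the 2 endoplasmic reticulum chaperones with nearly equal levels in the gene tables. Hsp90b1 has another match on the opposite strand, 107 to 89 bases before the start (chr10:86705512-86705572), shown on a line of its own after the first.
Hspa5: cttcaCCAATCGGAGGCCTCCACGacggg
Hsp90b1: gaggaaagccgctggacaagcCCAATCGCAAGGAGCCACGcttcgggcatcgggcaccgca
Hsp90b1, nearer match: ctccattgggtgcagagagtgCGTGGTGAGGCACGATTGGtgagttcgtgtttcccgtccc
Hspa5 averaged 149 ± 4.36 TPM and Hsp90b1 141 ± 2.11 TPM in the gene tables, and 250 ± 9.45 and 203 ± 9.95 TPM in the alignment-free tables.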

How the data were processed

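Total RNA-seq libraries of 2 biosamples in 1 group were analysed, so no comparison between groups and no test was possible. Per the file headers, the deposited gene and alignment-based transcript tables hold expected counts (reads matching several genes are shared out), TPM, posterior mean TPM and a posterior SD of the count. Estimated counts and TPM also stand in the deposited alignment-free tables. Reads were assigned to mm10 with GENCODE M21, per the deposited notes. For the aligner and quantifiers, the name is not given in the sources used here.

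Levels are the mean and SD of the gene table's TPM. Expected counts were rounded, and genes with a mean of 10 counts were scaled by TMM (edgeR 4.0.16, prior count 2, R 4.3.3). Intervals of ratios are exact binomial at 95% and cover counting error only, and these tables name no molecular identifiers. The ratio step was tested on simulated data. Alternatives were DESeq2 1.42.0 size factors, total counts, spike-in totals, alignment-free counts and other thresholds. Shared sequence was sought in 100-base windows of the leading transcript.

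The members and lists were chosen with earlier results of these data known. Named are all members, with the most abundant of each role, and of the further chaperone genes the 1 to 3 most abundant of most role groups and those past 1.5-fold. Gm15459 and the other window-sharing genes were named after their values were seen.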

Additional observations from a re-analysis of the deposited data

How the results depend on the processing

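The members' median level of 71.4 TPM was 108 TPM in the alignment-free tables and 162 TPM when TPM was rescaled over nuclear protein-coding genes, and 68.9 to 74.0 TPM with either library left out. All 40 genes stayed at 1 TPM or more with either library left out, and 38 reached 5 TPM. The count past 1.5-fold was 0 under DESeq2 size factors, total counts, spike-in totals, TPM ratios, alignment-free counts, a prior count of 0.5, no filter and a 2-fold threshold, and 3 past a log2 ratio of 0.32. The members' median log2 ratio of -0.11 was 0.054 with spike-in totals and -0.14 with alignment-free counts. For all genes with a mean of 100 counts, the median of -0.023 became 0.137 and -0.068 under these settings. With alignment-free counts, 12 of 40 genes left their counting interval. That share was not computed over all genes, so the 12 are not read as a trait of the members. The leading transcript was the same in all tables for 28 genes by TPM and 32 by counts. Summing Hspa8 with Gm15459, restricting members to whole counts (median 72.9 TPM), counting genes past 1.5-fold by TPM ratios or spike-in totals, and leading transcripts by counts were alternatives added after seeing the data. No paired analysis was possible because the libraries form 1 group. With 2 libraries, and about 100 to 200 counts each for Hspb1, Hspb8 and Bag3, differences under the counting interval were not detectable for these genes.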
